A study of Rattus norvegicus with 32 samples.

Results

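The genes described here are 31 genes of cholesterol synthesis, uptake and regulation in the rat uterus. They were taken by symbol from the 17327 genes of the deposited count table, matched through NCBI gene identifiers. All 31 were in the table, and all 31 passed the filter on low counts that left 13312 genes for testing. By role they comprise 19 enzymes of synthesis, 5 genes that control synthesis (Srebf1, Srebf2, Scap, Insig1 and Insig2), 4 genes of transport and uptake (Npc1, Npc2, Stard4 and Mylip) and 3 genes of efflux (Abca1, Abcg1 and Apoe).

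Cells make cholesterol from acetyl-CoA through the mevalonate pathway. Acat2 and Hmgcs1 act at its start, Mvk, Pmvk, Mvd and Idi1 turn mevalonate into isoprenoid units, and Fdps, Fdft1 and Sqle lead to squalene and its epoxide. Lss closes the ring to form lanosterol, and Cyp51, Tm7sf2, Msmo1, Nsdhl, Hsd17b7, Ebp, Sc5d and Dhcr7 complete the sterol. Ggps1 makes the isoprenoid geranylgeranyl diphosphate on a side branch. When membrane sterol is low, SCAP carries the precursor of the transcription factor SREBP-2 (Srebf2) from the endoplasmic reticulum to the Golgi, where it is cut into its active form. INSIG proteins hold SCAP back when sterol is plentiful, and Insig1 is itself a target of SREBP-2. High sterol raises oxysterols, which activate liver X receptors. Known targets of these receptors include Abca1, Abcg1 and Apoe, which serve export of cholesterol, and Mylip, a ubiquitin ligase that removes lipoprotein receptors from the cell surface. In the uterus cholesterol serves the membranes of growing epithelium and muscle, and estrogens are known to act on sterol genes in several tissues.

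Uterus was taken at PND365 (PND, postnatal day) from Sprague-Dawley rats of the NCTR colony (Sprague-Dawley/CD23/NctrBR) and its RNA was sequenced. All groups were dosed by oral gavage, the dams from gestation day 6 until labour and the pups directly from PND 1, and controls received the vehicle, 0.3% carboxymethylcellulose. Bisphenol A (BPA), a plastics monomer with weak estrogenic action, was given in daily doses of 2.5, 25, 250, 2500 or 25000 µg per kg of body weight. Ethinyl estradiol (EE2), an orally active synthetic estrogen, was given in daily doses of 0.05 or 0.5 µg per kg. Each of the 8 groups held 4 libraries, called libraries 1 to 4 below with no pairing between groups, and groups are named by agent and dose. The labels name no animal, litter or estrous stage, so the p-values below rest on the spread among libraries alone, which may be technical.

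The 32 libraries held 11777809 to 24661856 counts each, and levels are given as CPM, the counts put on the same total for every library after TMM scaling, so that 3 counts are 0.122 to 0.255 CPM. The lowest count of any of the 31 genes in any library was 10, for Mvd. Smooth muscle markers (10 of 10 in the table) summed to 12973 to 40511 CPM and epithelial markers (10 of 10) to 589 to 2904 CPM over the same libraries. Mean smooth muscle sums were 29166 CPM in control and from 19111 (BPA 25) to 24533 CPM (EE2 0.5) in the exposed groups. Control libraries ran from 20828 to 40511 CPM, with control library 2 the highest. Markers of steroidogenic ovary (8 of 8 in the table), another tissue rich in these genes, summed to 8.3 to 126 CPM, and 1 to 3 of Cyp17a1, Hsd3b1 and Fshr had no counts in each group. The sum of 126 CPM was in BPA 2.5 library 2. The next highest was 58 CPM in EE2 0.05 library 2, and control ran from 8.79 to 40.9 CPM. Fewer cells of a type and less RNA per cell cannot be told apart in RNA of whole tissue. In 4 libraries (BPA 2.5 libraries 1 and 3, BPA 250 library 1 and BPA 25000 library 3) the median rank correlation with the other libraries over all genes was 0.912 to 0.943, against 0.953 to 0.971 in the other 28. BPA 2.5 libraries 1 and 3 also held the highest sums of cell cycle markers, 1005 and 949 CPM against 72.2 to 433 CPM in control.

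Msmo1, Hsd17b7 and Mylip passed the test against control in 3 of the 7 exposed groups each, more than any other of the 31 genes, so the sequences before their start sites are shown. They are the 250 bases before the start site from the RefSeq table of build GRCr8, 5′ to 3′ on the gene's strand: Msmo1 at chr16:29746863-29747112 on the plus strand, Hsd17b7 at chr13:84722755-84723004 and Mylip at chr17:19514472-19514721 on the minus strand. Capitals mark GC boxes (GGGCGG, bound by SP1) and NF-Y boxes (CCAAT) on either strand.
Msmo1: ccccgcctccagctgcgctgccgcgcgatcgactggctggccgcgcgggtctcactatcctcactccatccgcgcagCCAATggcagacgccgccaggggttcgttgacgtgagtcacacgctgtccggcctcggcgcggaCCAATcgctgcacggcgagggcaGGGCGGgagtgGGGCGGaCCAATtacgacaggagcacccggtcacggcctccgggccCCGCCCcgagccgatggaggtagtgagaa
Hsd17b7: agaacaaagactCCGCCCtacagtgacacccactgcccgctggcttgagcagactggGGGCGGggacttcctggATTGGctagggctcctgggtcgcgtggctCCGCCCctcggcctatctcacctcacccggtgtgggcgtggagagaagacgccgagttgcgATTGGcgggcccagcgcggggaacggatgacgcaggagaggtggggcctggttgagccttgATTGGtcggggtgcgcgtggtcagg
Mylip: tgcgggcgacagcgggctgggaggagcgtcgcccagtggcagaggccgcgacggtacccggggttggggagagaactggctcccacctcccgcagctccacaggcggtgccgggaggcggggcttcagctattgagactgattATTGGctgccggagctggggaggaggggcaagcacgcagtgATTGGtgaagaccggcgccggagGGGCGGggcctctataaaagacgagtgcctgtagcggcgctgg
Msmo1 and Hsd17b7 each hold 3 GC boxes and 3 NF-Y boxes here, and Mylip holds 1 and 2. Of the 31 genes, 26 had an entry in that table (Pmvk, Fdft1, Sqle, Stard4 and Abcg1 had none), which runs from 250 bases before to 50 bases after the start. A GC box lay in 21 of those 26 and in 34.89% of 27457 promoters of the same length, and an NF-Y box in 19 of 26 and in 37.74% of all. The E-box CACGTG lay in 4 of 26 (Sc5d, Scap, Insig1 and Abca1) and in 6.65% of all. The letters TCACNCCAC, a core form of the sterol regulatory element that SREBPs bind, lay in 0 of 26 and in 1.13% of all. These matches describe letters in a window and not bound sites. The 27457 promoters were not limited to genes that passed the filter on low counts, as the 26 were, so these shares come from unlike sets.

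Across all 31 genes, the synthesis enzymes were mostly below control in the exposed libraries and the 3 efflux genes above it. Log2 fold changes (log2FC) are given against control with their standard error (SE), and a gene is said to have passed where its adjusted p in edgeR's quasi-likelihood test, corrected over all 13312 genes, was under 0.05. The mean over the 19 synthesis genes of log2 CPM minus the control mean ran from -0.40 to 0.18 in the 4 control libraries. It lay below 0 in 27 of 28 exposed libraries, the exception being BPA 25 library 2 at 0.06, and below all controls in 24. Control library 1, at -0.40, had 17 of the 19 genes below the control mean. The mean over Abca1, Abcg1 and Apoe ran from -0.47 to 0.37 in control and lay above 0 in 28 of 28 exposed libraries and above all controls in 23. All comparisons with control share the same 4 control libraries, so these shifts are not independent of one another.

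**Figure D1:**
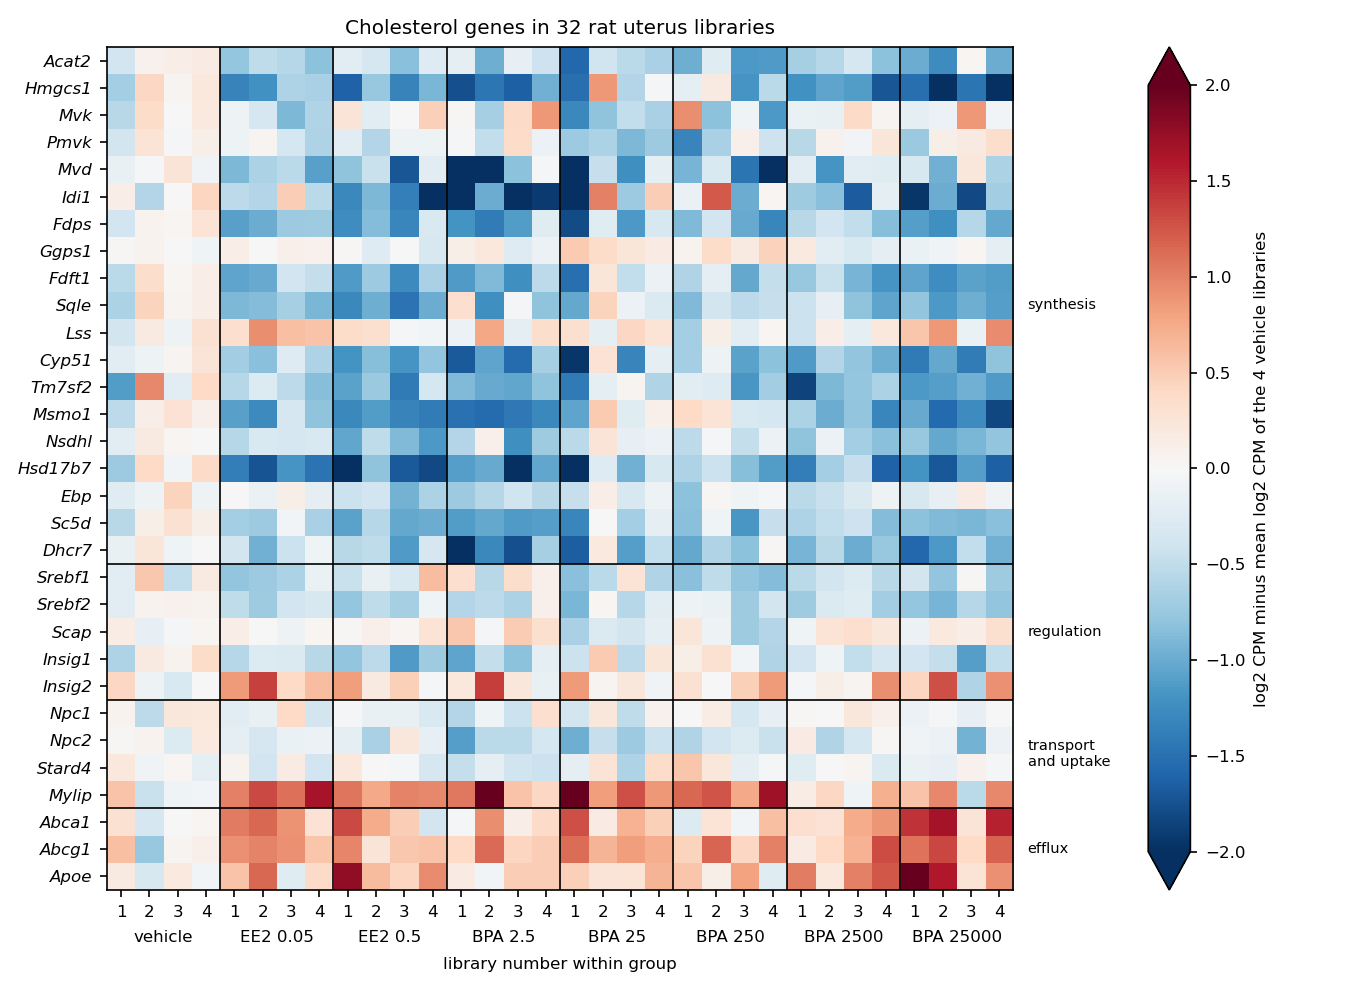
Each cell is log2 CPM of one gene in one library minus the mean log2 CPM of the 4 vehicle libraries, with genes in rows ordered by role and the 32 libraries in columns by group; colours stop at -2 and 2. Blue prevails among the synthesis genes of every exposed library except BPA 25 library 2, which is red or pale for most of them. Red prevails for Mylip and the 3 efflux genes.

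**Figure D2:**
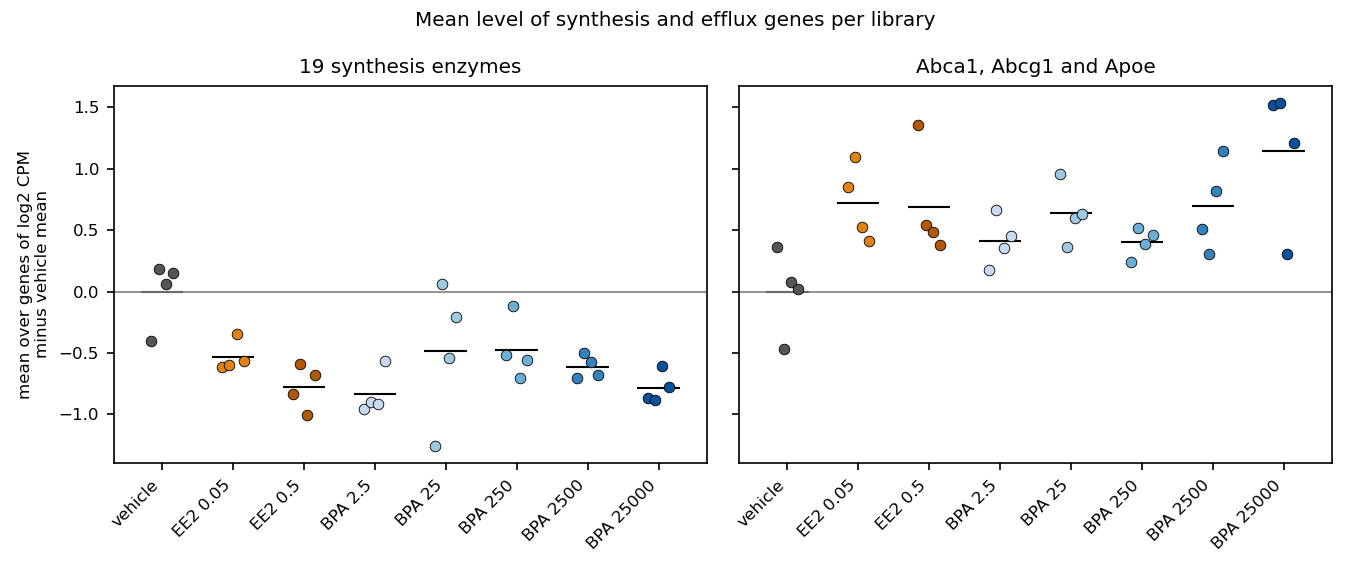
Each point is one library's mean over the 19 synthesis genes (left) or the 3 efflux genes (right) of log2 CPM minus the vehicle mean, and bars are group means. The synthesis means of BPA 25 spread from -1.25 to 0.06, while those of BPA 25000 lie between -0.88 and -0.61.

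The 2 EE2 groups show the genes under the reference estrogen. At EE2 0.05, 0 of the 31 genes passed, as did 0.0451% of all genes tested. The median log2FC of the 19 synthesis genes was -0.60 with 17 of 19 below 0, against a median of -0.01 and 50.7% below 0 over all genes. At an unadjusted p under 0.05 stood 16 of the 31 against 11.5% of all genes, and DESeq2 called 2 against 0.563%. No overlap with control was found for 10 of the 31, against 11.4% of all genes. The 3 smallest p-values belonged to Hsd17b7, Mylip and Msmo1. Hsd17b7, a reductase that acts on the sterol ring, was at 4.64, 3.66, 5.39 and 4.35 CPM against 7.42, 16.4, 12 and 16.1 CPM in control, with no overlap (log2FC -1.52, SE 0.38, adjusted p = 0.222). Mylip was at 151, 186, 160 and 235 CPM against 111, 55.1, 70.4 and 72 CPM, also without overlap (log2FC 1.25, SE 0.34, adjusted p = 0.222). Msmo1, the sterol C4-methyl oxidase, was at 66.1 ± 19.9 against 120 ± 26.7 CPM (SD, n = 4), with a log2FC of -0.86 (SE 0.25, adjusted p = 0.222).

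At EE2 0.5, 3 of the 31 genes passed, all enzymes of synthesis and all lower, against 0.556% of all genes (0.293% lower and 0.263% higher). The median of the 19 synthesis genes was -0.89, with 17 of 19 below 0, and 14 of the 31 genes did not overlap with control against 12.8% of all genes. Msmo1 was at 48, 54.2, 46.6 and 44.6 CPM against 81.9, 130, 144 and 126 CPM in control. All 4 exposed libraries lay below every control, and Msmo1 fell by 1.32 on the log2 scale (SE 0.25, adjusted p = 0.0398). Sqle, the squalene epoxidase and a rate-limiting step, was at 15.1, 18.6, 13.1 and 18.4 CPM against 23.6, 50, 38.2 and 40.5 CPM. It fell by 1.23 (SE 0.28, adjusted p = 0.0425), again without overlap. Hsd17b7 was at 2.96, 7.03, 3.78 and 3.44 CPM, its highest library just under the lowest control, and fell by 1.59 (SE 0.38, adjusted p = 0.0466). Nsdhl and Sc5d, which remove a methyl group from the sterol and set a double bond, both stood at an adjusted p of 0.0536, with log2FC of -0.89 (SE 0.22) and -0.94 (SE 0.23). The control genes Insig1 (log2FC -0.82, SE 0.23, adjusted p = 0.0884) and Srebf2 (log2FC -0.49, SE 0.19, adjusted p = 0.208) did not pass. The 3 efflux genes had a median of 0.65 and none passed. Leaving out control library 1 gave 9 genes in place of 3, leaving out EE2 0.5 library 1 gave 1, and leaving out any other library of the 2 groups gave 0. Genes called over the whole table were then 206, 27 and 0 to 3 against 74. Squamous epithelium markers (7 of 8 in the table, Krt4 at 0 counts in control) summed to 35.4 to 251 CPM at EE2 0.5 against 5.36 to 22.4 CPM in control, and 3 of the 7 were higher in the test. At EE2 0.05 they summed to 6.15 to 443 CPM, also with 3 of 7 higher. Macrophage markers (9 of 9 in the table) summed to 500 to 712 CPM at EE2 0.5 against 302 to 448 CPM in control, without overlap, and none of them passed. The part of these cell types in the EE2 results was not tested.

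BPA 2.5, the lowest dose, was the group in which 13 of the 31 genes passed, 12 lower and 1 higher, against 11.4% of all genes (4.39% lower and 7.06% higher). The lower genes were 11 of the 19 synthesis enzymes and Npc2, and the higher gene was Mylip. The median of the synthesis genes was -0.95 with 16 of 19 below 0, against a median of 0.05 and 46.1% below 0 over all genes. All 4 libraries lay below every control for 9 of the 31 genes, against 5.72% of all genes, and above every control for 0 of the 31, against 6.45%.

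At the entry to the pathway, Hmgcs1, which makes HMG-CoA, was at 73.6, 90.7, 79.9 and 127 CPM at BPA 2.5 against 155, 331, 257 and 287 CPM in control. All exposed libraries lay below the lowest control, and Hmgcs1 fell by 1.47 (SE 0.35, adjusted p = 0.00756). Idi1, the isomerase of isopentenyl diphosphate, was at 134, 348, 170 and 184 CPM against 765, 462, 702 and 939 CPM and fell by 1.78 (SE 0.49, adjusted p = 0.0185). Fdps and Fdft1, which build farnesyl diphosphate and squalene, fell by 0.94 (SE 0.28, adjusted p = 0.0301) and 0.95 (SE 0.26, adjusted p = 0.0182), and both overlapped with control. In BPA 2.5 library 4 Fdps was at 69.7 CPM, above control library 1 at 63.3 CPM. Sqle did not pass, with 46.5, 15.7, 36 and 21 CPM and a log2FC of -0.35 (SE 0.28, adjusted p = 0.435). Its BPA 2.5 libraries 1 and 3, 2 of the 4 libraries that stood apart, were within the control range and libraries 2 and 4 below it.

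The enzymes after lanosterol were the largest block at BPA 2.5. Msmo1 was at 42, 40.6, 43.8 and 48.2 CPM against 81.9 to 144 CPM in control and fell by 1.46 (SE 0.25, adjusted p = 0.00261). Sc5d, the lathosterol desaturase, was at 21.9, 23.4, 21.7 and 22.2 CPM against 32.6, 51.9, 59 and 51.8 CPM and fell by 1.13 (SE 0.23, adjusted p = 0.00396). Both genes lay in a narrow band in the exposed libraries and below every control. Dhcr7, which makes cholesterol from 7-dehydrocholesterol, was at 5.13, 9.16, 6.6 and 14.3 CPM against 20.5, 26.7, 21.4 and 22.4 CPM and fell by 1.37 (SE 0.33, adjusted p = 0.00804). Cyp51, the lanosterol demethylase, was at 76.4, 118, 84.5 and 155 CPM against 212, 228, 254 and 292 CPM and fell by 1.19 (SE 0.31, adjusted p = 0.0136). Hsd17b7 was at 5.7, 6.08, 2.6 and 5.93 CPM and fell by 1.35 (SE 0.37, adjusted p = 0.0188). In these 3 genes no exposed library reached the lowest control. Tm7sf2, a sterol reductase, fell by 1.13 (SE 0.34, adjusted p = 0.0298) and overlapped with control, whose libraries ranged from 6.04 to 25.8 CPM. Ebp, the sterol isomerase, fell by 0.59 (SE 0.19, adjusted p = 0.0405) without overlap.

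Among the genes of transport, Npc2, the lysosomal protein that hands cholesterol to NPC1, was at 94.2, 139, 138 and 158 CPM at BPA 2.5 against 205, 211, 166 and 229 CPM in control. It fell by 0.62 (SE 0.20, adjusted p = 0.0395), while Npc1 had a log2FC of -0.18 (SE 0.19, adjusted p = 0.589). Mylip was at 156, 334, 111 and 99.2 CPM and rose by a log2FC of 1.18 (SE 0.34, adjusted p = 0.0223). Library 2 was the highest of all 32 for Mylip, and without it the log2FC was 0.66 (adjusted p = 0.146). That library also held the highest sum of ovary markers, 126 CPM, whose part in this call was not tested. The control genes did not pass, Insig1 having a log2FC of -0.64 (SE 0.23, adjusted p = 0.0719) and Srebf2 one of -0.38 (SE 0.19, adjusted p = 0.202). Efflux genes had log2FC of 0.28 to 0.57 and none passed.

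The BPA 2.5 calls of Hmgcs1, Msmo1, Sc5d and Dhcr7 held in each of the 8 fits that left out 1 library. Leaving out control library 2, 3 or 4 gave 6, 8 and 6 genes in place of 13, and leaving out BPA 2.5 library 1 or 3 gave 6 and 5. Without the 4 libraries that stood apart it was 3, with 526 genes called in place of 1524. The 3 were Msmo1 (log2FC -1.43, adjusted p = 0.0197), Sc5d (log2FC -1.09, adjusted p = 0.0483) and Mylip (log2FC 1.49, adjusted p = 0.0198). That fit kept only libraries 2 and 4 of BPA 2.5, which were at 334 and 99.2 CPM for Mylip. Without library 2 alone the Mylip call was lost (log2FC 0.66, adjusted p = 0.146). A fit of only the BPA 2.5 and control libraries also called 3 (Hmgcs1, Msmo1 and Sc5d), against 0.457% of all genes. In the same group ciliated cell markers (7 of 7 in the table) summed to 527, 5, 383 and 5.35 CPM in libraries 1 to 4 against 2.74 to 4.66 CPM in control, 7 of 7 of them higher in the test. Squamous markers summed to 29.7 to 43 CPM against 5.36 to 22.4 CPM in control, without overlap, and 3 of 7 were higher. Of the other markers, 1 of 9 for macrophages was higher, and of 8 for the cell cycle 1 was higher and 1 lower. The part of these markers in the sterol gene result was not tested.

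The middle BPA doses gave fewer calls. At BPA 25, 1 of the 31 genes passed, against 1.92% of all genes, a count too small to set apart from that background. Mylip was at 303, 134, 183 and 136 CPM against 111, 55.1, 70.4 and 72 CPM in control, above every control, and rose by a log2FC of 1.29 (SE 0.34, adjusted p = 0.0449). The next smallest p-values belonged to Npc2 (log2FC -0.64, SE 0.20, adjusted p = 0.0635) and Pmvk, the phosphomevalonate kinase (log2FC -0.77, SE 0.25, adjusted p = 0.0749). Synthesis genes spread widely between these libraries. Hmgcs1 was at 87.6, 451, 165 and 244 CPM, so that library 1 lay below every control and library 2 above every control. Idi1 ran from 172 to 1400 CPM and Cyp51 from 63.4 to 298 CPM, with libraries 1 and 2 again at the ends. The median of the 19 synthesis genes was -0.49, with 16 of 19 below 0, and 9 of the 31 genes did not overlap with control against 20% of all genes. Fat markers (8 of 8 in the table) summed to 1529, 604, 764 and 421 CPM in BPA 25 libraries 1 to 4 against 88.6 to 622 CPM in control, with 1 of 8 higher in the test. Library 1, the low end for Hmgcs1, Idi1 and Cyp51, had the highest fat sum and, at 589 CPM, the lowest epithelial sum of the 32 libraries. Ciliated markers summed to 28.8 to 52.3 CPM at BPA 25 against 2.74 to 4.66 CPM in control, without overlap, with 1 of 7 higher. Of the other markers, 1 of 10 for smooth muscle was lower and 1 of 9 for macrophages higher. The part of these markers in the values at BPA 25 was not tested. The single call was lost without any 1 of the 8 libraries except BPA 25 library 4.

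At BPA 250, 3 of the 31 genes passed, against 8.79% of all genes, a share close to that background. Mylip was at 165, 178, 126 and 241 CPM, above every control, and rose by a log2FC of 1.20 (SE 0.34, adjusted p = 0.0285). Acat2, the cytosolic thiolase, was at 11.5, 19.2, 10.2 and 10.3 CPM against 17.3, 24.2, 25 and 25.5 CPM and fell by 0.84 (SE 0.27, adjusted p = 0.0456), with library 2 inside the control range. Fdps was at 44.9, 63.1, 41 and 33.3 CPM against 63.3, 86.7, 85.3 and 100 CPM and fell by 0.88 (SE 0.28, adjusted p = 0.0481), its highest library just under the lowest control. Msmo1, which fell at BPA 2.5, had a log2FC of 0.02 (SE 0.25, adjusted p = 0.973) here, at 156, 142, 95.5 and 92.5 CPM. The count of 3 was 4 without control library 1 and 5 without BPA 250 library 2, and it was 1 or 0 without any other single library. Without the 4 libraries that stood apart it was 1. At BPA 250 stroma markers (6 of 6 in the table) summed to 25563 to 28724 CPM against 9214 to 28363 CPM in control and 2 of 6 were higher in the test. Fat markers summed to 298 to 967 CPM with 1 of 8 higher, 1 of 10 for smooth muscle was lower and 1 of 9 for macrophages was higher. Their part in these calls was not tested. Of the 31 genes, 4 did not overlap with control at BPA 250, against 19.3% of all genes.

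At BPA 2500, 0 of the 31 genes passed, and 0% of all genes did in edgeR. At an unadjusted p under 0.05 stood 15 of the 31 against 10.2% of all genes, and DESeq2 called 2 of the 31 against 0.691%. No overlap with control was found for 8 of the 31, against 7.97% of all genes. The median of the synthesis genes was -0.62 with 18 of 19 below 0, against a median of 0.01 and 48.2% below 0 over all genes. Hmgcs1 was at 108, 119, 114 and 75.7 CPM, below every control (log2FC -1.31, SE 0.34, adjusted p = 0.246). Msmo1 was at 75.7, 59.4, 68.1 and 47.6 CPM, also below every control (log2FC -0.94, SE 0.25, adjusted p = 0.246). Tm7sf2 was at 3.59, 7.06, 7.72 and 8.54 CPM (log2FC -1.17, SE 0.34, adjusted p = 0.252).

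BPA 25000, the highest dose, again gave 13 of 31, 10 lower and 3 higher, against 2.32% of all genes (0.962% lower and 1.36% higher). The lower genes were 9 of the 19 synthesis enzymes and Srebf2, and the higher genes were the 3 efflux genes Abca1, Abcg1 and Apoe. All 4 libraries lay below every control for 12 of the 31 genes, against 7.14% of all genes, and above every control for 1 (Apoe), against 6.16%. The median of the synthesis genes was -0.98 with 16 of 19 below 0, against 0.02 and 47.8% below 0 over all genes. Ciliated markers summed to 9.66 to 23.7 CPM at BPA 25000 against 2.74 to 4.66 CPM in control, without overlap, and none passed. Their sums also lay above every control at EE2 0.05 (5.17 to 9.28 CPM), EE2 0.5 (5.67 to 7.26 CPM) and BPA 2500 (7.4 to 152 CPM). At BPA 250 they overlapped with control, at 2.54 to 18.8 CPM. Smooth muscle markers summed to 19309 to 24584 CPM against 20828 to 40511 CPM in control, and none passed. The part of these markers in the synthesis result was not tested.

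Of the synthesis enzymes at BPA 25000, Hmgcs1 was at 86.7, 58.8, 90.1 and 57.6 CPM against 155, 331, 257 and 287 CPM in control. It fell by 1.81 (SE 0.35, adjusted p = 0.0127), a level 3.51 times lower. Fdft1, the squalene synthase, was at 39.3, 34.4, 38.7 and 37.3 CPM against 56.1, 104, 83.9 and 89.3 CPM and fell by 1.16 (SE 0.26, adjusted p = 0.0245). Sqle was at 21.3, 16.5, 18.7 and 17.1 CPM against 23.6 to 50 CPM and fell by 1.05 (SE 0.28, adjusted p = 0.045). In these 3 genes all exposed libraries lay below the lowest control, and those of Fdft1 and Sqle lay close together.

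After lanosterol, Msmo1 at BPA 25000 was at 58.4, 39.9, 49.3 and 33.1 CPM against 81.9 to 144 CPM in control and fell by 1.41 (SE 0.25, adjusted p = 0.00956). Hsd17b7 was at 5.33, 3.72, 5.71 and 3.9 CPM and fell by 1.47 (SE 0.37, adjusted p = 0.0362). Nsdhl, a sterol dehydrogenase, was at 14.9, 12.5, 13.4 and 14.6 CPM against 21.9, 28.9, 26.1 and 25.6 CPM and fell by 0.88 (SE 0.22, adjusted p = 0.0332). Sc5d was at 27.1, 25.9, 25.3 and 26.7 CPM and fell by 0.90 (SE 0.23, adjusted p = 0.038), and Cyp51, at 91.8, 120, 92.5 and 140 CPM, fell by 1.15 (SE 0.31, adjusted p = 0.0452). None of these 5 genes overlapped with control. Tm7sf2 fell by 1.29 (SE 0.34, adjusted p = 0.0414) and overlapped with control library 1. Lss, the lanosterol synthase between Sqle and Cyp51, had a log2FC of 0.60 (SE 0.23, adjusted p = 0.152), with 35.4, 44.1, 22 and 46.2 CPM against 18.5, 27.2, 22.4 and 29.6 CPM.

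Among the control genes at BPA 25000, Srebf2 was at 109, 97.2, 125 and 108 CPM against 158, 195, 197 and 196 CPM in control. It fell by 0.76 (SE 0.19, adjusted p = 0.0362) without overlap, and this was the only call for Srebf2 among the 7 exposed groups. Insig1 had a log2FC of -0.63 (SE 0.23, adjusted p = 0.131), and Scap, the escort of SREBP, one of 0.14 (SE 0.16, adjusted p = 0.681).

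The efflux genes moved the other way at BPA 25000. Abca1, which loads cholesterol on to apolipoprotein A-I, was at 241, 280, 106 and 258 CPM against 109, 69.9, 87.6 and 90.8 CPM in control and rose by a log2FC of 1.31 (SE 0.31, adjusted p = 0.0295). Apoe, the apolipoprotein, was at 582, 433, 172 and 268 CPM against 162, 115, 163 and 137 CPM and rose by a log2FC of 1.33 (SE 0.32, adjusted p = 0.0314). Abcg1, a transporter that passes cholesterol to lipoproteins, was at 51.8, 61.5, 32 and 55.2 CPM against 37.1, 14.4, 25.1 and 26 CPM and rose by a log2FC of 0.97 (SE 0.26, adjusted p = 0.0452). In all 3 genes library 3 was the lowest, within the control range for Abca1 and Abcg1 and just above it for Apoe. Macrophages express these genes strongly, and the 9 macrophage markers, all in the table, summed to 689, 785, 212 and 637 CPM in the same 4 libraries against 302 to 448 CPM in control. No macrophage marker passed in this comparison. In EE2 0.5 the macrophage sum was 500 to 712 CPM, and the 3 efflux genes had a median log2FC of 0.65 with none passing. In EE2 0.05 the macrophage sum was 471 to 581 CPM and the efflux median 0.78, again with none passing. In BPA 2.5, BPA 25 and BPA 250 the macrophage sums overlapped with control, and the efflux medians were 0.38, 0.70 and 0.35. In BPA 2500 the sum was 452 to 705 CPM and the efflux median 0.63, with no gene of the whole table passing. The part of macrophage RNA in the efflux result was not tested.

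The count of 13 at BPA 25000 was 0 when either control library 2 or BPA 25000 library 2 was left out, fits in which 2 genes of the whole table were called in place of 309. Omitting control library 3 or 4 left 2 each, omitting BPA 25000 library 1 left 7 and library 4 left 1, and 15 passed without the 4 libraries that stood apart. The log2FC of these calls kept their direction in every fit that left out a library, though such fits share most of their libraries. That of Hmgcs1 ran from -1.99 to -1.67, that of Msmo1 from -1.56 to -1.29 and that of Abca1 from 1.17 to 1.54.

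**Figure D3:**
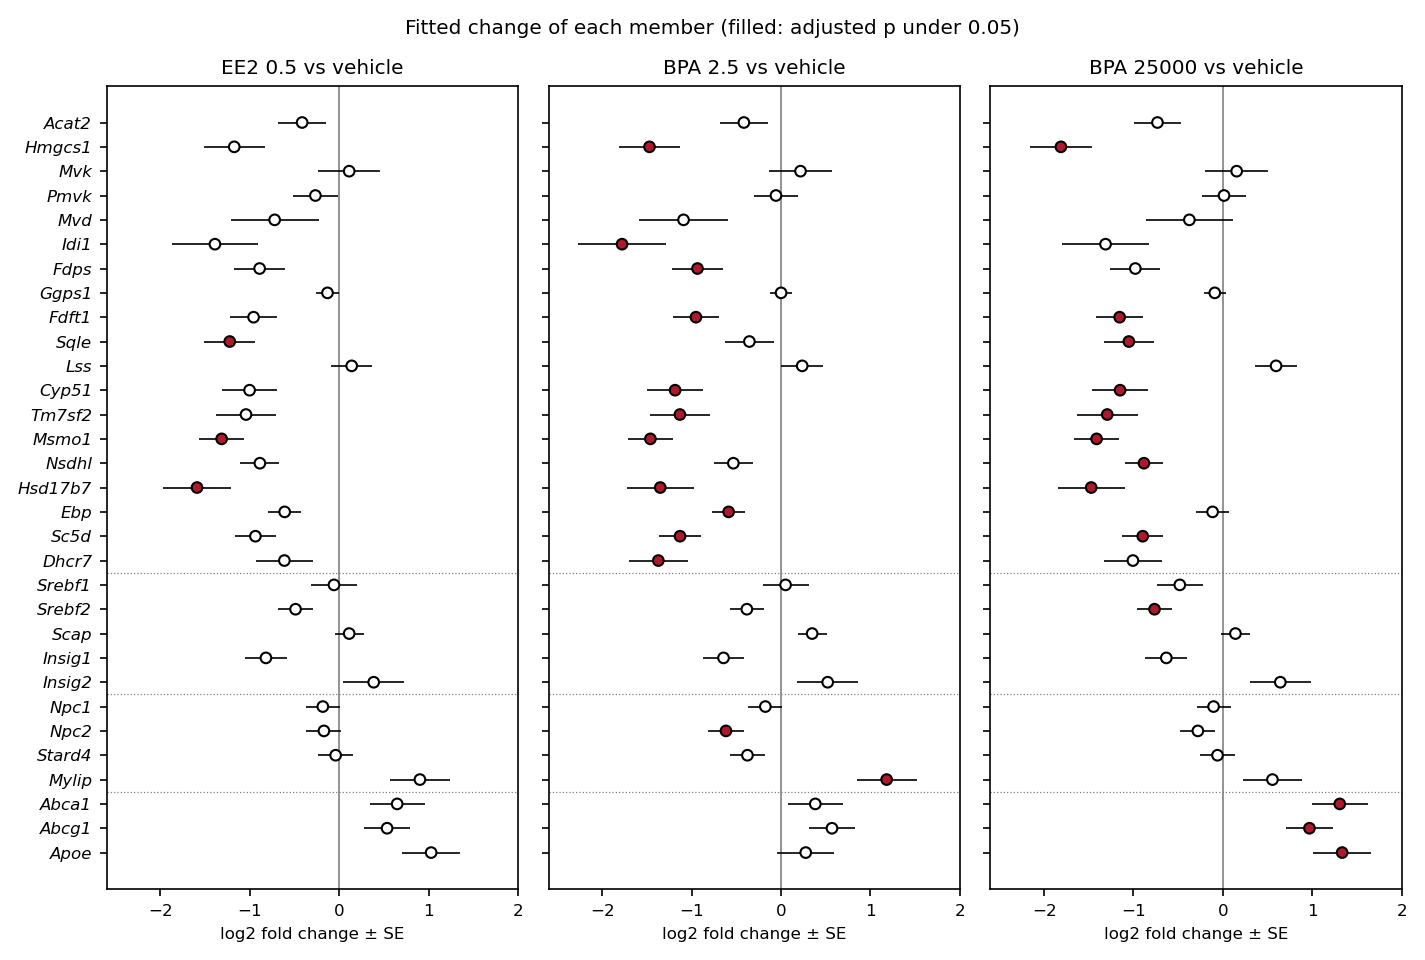
Points are fitted log2 fold changes against vehicle with bars of 1 standard error for each of the 31 genes in EE2 0.5, BPA 2.5 and BPA 25000; filled points passed at an adjusted p under 0.05. Msmo1 and Hsd17b7 are filled in all 3 panels, Dhcr7 and Mylip only at BPA 2.5, and Abca1, Abcg1 and Apoe only at BPA 25000.

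The 8 genes of a panel spanning the roles were compared across the groups as levels. Mean Hmgcs1 was highest in control at 257 ± 74.9 CPM (SD, n = 4), then at BPA 25 (237 ± 156) and BPA 250 (194 ± 72.7), and lowest at BPA 25000 (73.3 ± 17.5). EE2 0.05, EE2 0.5, BPA 2500 and BPA 2.5 lay between, at 131 ± 33.5, 114 ± 30, 104 ± 19.4 and 92.8 ± 23.9 CPM, where each differed from the next by less than their SDs. Msmo1 had the same groups at the top, BPA 250 (122 ± 32.3), control (120 ± 26.7) and BPA 25 (113 ± 47.2). Its other 5 groups were at 66.1 ± 19.9 (EE2 0.05), 62.7 ± 12.1 (BPA 2500), 48.3 ± 4.13 (EE2 0.5), 45.2 ± 11 (BPA 25000) and 43.7 ± 3.32 CPM (BPA 2.5).

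For Hsd17b7, as for Hmgcs1, the control mean stood above all exposed groups. It was 13 ± 4.21 CPM for Hsd17b7, and the next was BPA 250 at 7.4 ± 1.52 CPM. The lowest was EE2 0.5 at 4.3 ± 1.85 CPM. Sqle ranged from 38.1 ± 10.9 CPM in control through 32.9 ± 13.2 (BPA 25) and 29.8 ± 14.1 (BPA 2.5) to 16.3 ± 2.66 CPM at EE2 0.5. Insig1 was at 94.6 ± 24.9 CPM in control, 93.3 ± 32.9 at BPA 25 and 90.4 ± 22.5 at BPA 250, and lowest at EE2 0.5 with 53.6 ± 9.11 CPM. Srebf2 had a narrower range, from 187 ± 19 CPM in control to 110 ± 11.6 at BPA 25000, and its other groups lay between 133 and 150 CPM.

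Mean Abca1 was lowest in control at 89.4 ± 16.2 CPM and at BPA 250 with 99.8 ± 27 CPM, and highest at BPA 25000 (221 ± 78.6) and EE2 0.05 (163 ± 38.4). Apoe was lowest in control at 144 ± 23.1 CPM and highest at BPA 25000 (363 ± 181), EE2 0.5 (294 ± 133) and BPA 2500 (271 ± 73.7). In both genes BPA 25000 also had the widest spread between libraries. Neighbouring groups in these 2 orders differed by less than the larger of their SDs.

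**Figure D4:**
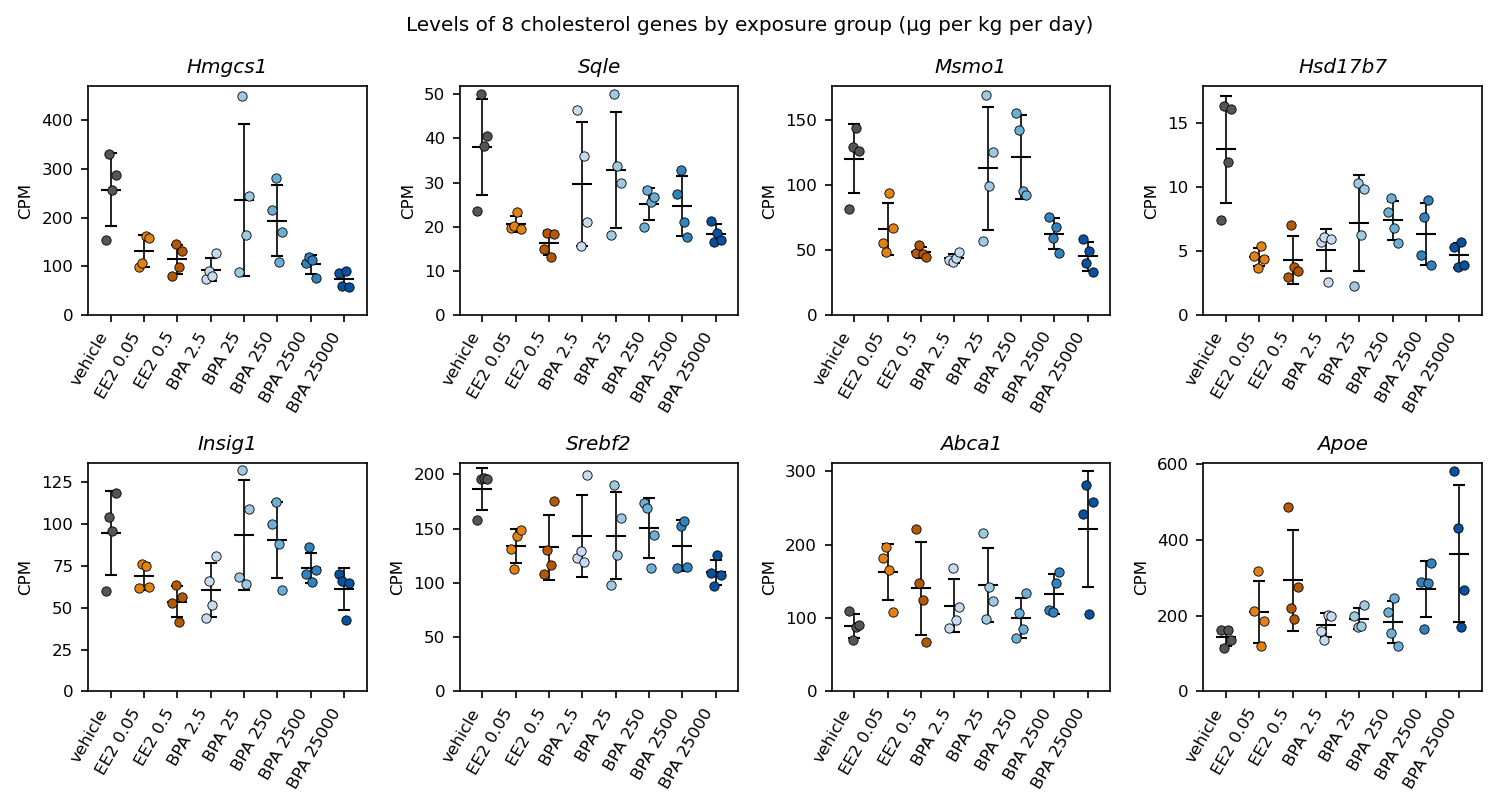
Levels in CPM of Hmgcs1, Sqle, Msmo1, Hsd17b7, Insig1, Srebf2, Abca1 and Apoe; points are the 4 libraries of each group and bars the mean ± SD. For Msmo1 the BPA 25 and BPA 250 libraries reach the control range, while the 4 BPA 2.5 libraries lie between 40.6 and 48.2 CPM.

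Over the 2 EE2 doses together, Msmo1 (log2FC -1.09, SE 0.21, adjusted p = 0.0327) and Hsd17b7 (log2FC -1.56, SE 0.31, adjusted p = 0.0358) passed, 2 of the 31 against 0.0676% of all genes, which is 9 genes. Both genes were below the control mean in 8 of 8 libraries. Sqle came next, with a log2FC of -1.05 (SE 0.23, adjusted p = 0.0673). Leaving out control library 1 gave 9 genes in place of 2, EE2 0.5 library 2 gave 2, EE2 0.05 library 3 gave 1 and each other library gave 0.

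Over the 5 BPA doses together 8 of the 31 genes passed, all lower and all enzymes of synthesis, against 1.34% of all genes (0.759% lower and 0.578% higher). They were Hmgcs1 (log2FC -1.02, adjusted p = 0.0393), Fdps (-0.83, adjusted p = 0.044), Fdft1 (-0.78, adjusted p = 0.0422), Cyp51 (-0.88, adjusted p = 0.0459), Tm7sf2 (-0.99, adjusted p = 0.0427), Msmo1 (-0.78, adjusted p = 0.0382), Hsd17b7 (-1.10, adjusted p = 0.0393) and Sc5d (-0.75, adjusted p = 0.0365). Fdps and Hsd17b7 were below the control mean in 20 of 20 BPA libraries. Fdft1, Cyp51, Tm7sf2 and Sc5d were below it in 19, Hmgcs1 in 18 and Msmo1 in 16. The count of 8 was 0 without control library 2, 3 or 4, BPA 2.5 library 3, BPA 2500 library 2 or 4, or BPA 25000 library 2 or 4. It was 1 without BPA 2.5 library 1 or BPA 250 library 3 or 4, 4 without BPA 250 library 1, and 12 without BPA 2.5 library 4 or BPA 25000 library 3. Without control library 2, the highest for Tm7sf2 at 25.8 CPM, its log2FC was -0.60. A fit of only the control and BPA libraries called 0 of the 31 genes and 12 of all 13213 it tested, so that none of the 8 calls held in it. Over the 5 doses 1 of 7 ciliated and 1 of 9 macrophage markers were higher, and their part in the 8 calls was not tested.

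Between the mean of the EE2 groups and the mean of the BPA groups, 0 of the 31 genes passed, against 0.841% of all genes, and DESeq2 also called 0. At an unadjusted p under 0.05 stood 4 of the 31 against 14.3% of all genes, a share near the background. Sqle had the largest difference, lower in EE2 by 0.49 on the log2 scale (log2FC -0.49, SE 0.17, adjusted p = 0.169). Insig1 had a log2FC of -0.30 (SE 0.14, adjusted p = 0.332) and Npc2 one of 0.24 (SE 0.11, adjusted p = 0.336). All 31 differences lay between -0.49 and 0.35.

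In a test of any difference among the 8 groups, 18 of the 31 genes passed against 31.7% of all genes. They were Hmgcs1, Idi1, Ggps1, Fdft1, Sqle, Lss, Cyp51, Tm7sf2, Msmo1, Nsdhl, Hsd17b7, Sc5d and Dhcr7 of synthesis, Scap and Insig1 of control, Mylip, and Abca1 and Apoe of efflux. Msmo1 had the smallest adjusted p, 6.51e-05. A test of any difference among the 5 BPA groups, chosen after the values were seen, passed 9 of the 31 against 31.7% of all genes, a share near the background, and 5 when BPA 2.5 library 1 was left out. Among those 9, Msmo1 (adjusted p = 6.6e-05), Hmgcs1 (adjusted p = 0.00105) and Idi1 (adjusted p = 0.00653) were high at BPA 25 and BPA 250 and low at the other 3 doses. Scap (adjusted p = 0.00378) had the reverse order, at 46.2 ± 5.94 CPM at BPA 25 and 50.5 ± 15.8 at BPA 250 against 65.9 to 76.1 CPM in the means of the others. Ggps1 (adjusted p = 0.00927) was at 94.5 ± 10.4 CPM at BPA 25 and 91 ± 11.2 at BPA 250 against means of 69.1 to 75.1 CPM at the other doses. Abca1 and Apoe (both adjusted p = 0.03) were highest at BPA 25000, and Nsdhl (adjusted p = 0.0491) and Pmvk (adjusted p = 0.0494) completed the 9. The orders of the doses are descriptions of the means and were not tested dose by dose.

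Of the 31 genes, 20 passed against control in at least 1 of the 7 exposed groups, against 20.7% of all genes, and 11 in none: Mvk, Pmvk, Mvd, Ggps1, Lss, Srebf1, Scap, Insig1, Insig2, Npc1 and Stard4. Mvk, the mevalonate kinase, ranged from 5.86 to 27.9 CPM over the 32 libraries, with BPA 25 at 8.4 ± 1.9 and control at 14.9 ± 3.82 CPM. Mvd, the mevalonate decarboxylase, had the lowest counts of the 31 genes and ranged from 0.77 CPM in BPA 2.5 library 2 to 6.45 CPM in control library 3. Its log2FC lay between -1.09 and -0.37 in the 7 groups with an SE of 0.49 to 0.50. Srebf1, which encodes SREBP-1, was at 33.5 ± 4.08 CPM at BPA 250 against 58.4 ± 18.4 CPM in control (log2FC -0.80, SE 0.26, adjusted p = 0.0501). Insig2 was above control in the mean of every exposed group, at 24.9 to 36.4 CPM against 20.4 CPM, with log2FC of 0.29 to 0.84. Stard4, a carrier of sterol through the cytosol, was at 11.5 ± 1.13 CPM at BPA 2.5 and at means of 13.7 to 16.7 CPM in the other groups. Npc1, the lysosomal sterol exporter, varied from 87.8 to 104 CPM in group means, with log2FC of -0.18 to 0.07. Where a gene shares its place in the genome with another, the counts may hold reads of both: Idi1 overlaps Wdr37, Srebf1 overlaps Rai1, Srebf2 overlaps Mir33 and Npc1 overlaps Rmc1 in the RefSeq table of GRCr8.

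Other genes of lipid and sterol metabolism were set beside the 31: 72 were listed, 70 were in the table and all 70 were tested. None passed in EE2 0.05, EE2 0.5 or BPA 2500. Of the 70, 5 were lower and 2 higher at BPA 2.5, 1 was lower at BPA 25, 5 were lower and 4 higher at BPA 250, and 4 were lower and 1 higher at BPA 25000. All genes called in these 4 groups were 11.4%, 1.92%, 8.79% and 2.32%. The counts of 7 and 1 of 70 at BPA 2.5 and BPA 25 were thus below the background. Those of 9 of 70 at BPA 250 and 5 of 70 at BPA 25000 were above it, and these shares were not tested. Fasn, the fatty acid synthase, was the only one of them to pass over the 5 BPA doses together (log2FC -0.73, SE 0.17, adjusted p = 0.0393), with 20 of 20 libraries below the control mean. It was at 157 ± 17 CPM in control and at 91.4 ± 19.5 (BPA 2.5), 110 ± 27.5 (BPA 25), 84.3 ± 20.2 (BPA 250), 103 ± 33.3 (BPA 2500) and 86.2 ± 25.2 CPM (BPA 25000). In single doses Fasn fell at BPA 2.5 by 0.78 (SE 0.24, adjusted p = 0.0327) and at BPA 250 by 0.90 (SE 0.24, adjusted p = 0.024). The median log2FC of the 15 genes of fatty acid synthesis was -0.45, -0.28, -0.14, -0.03, -0.21, -0.33 and -0.42 in EE2 0.05, EE2 0.5 and BPA 2.5 to 25000, nearer 0 than that of the cholesterol enzymes in each. In that order 14, 14, 9, 10, 9, 12 and 14 of these 15 genes lay below 0. Of the 19 cholesterol enzymes 17, 17, 16, 16, 16, 18 and 16 did. At EE2 0.05, EE2 0.5 and BPA 25000 these were 93.3% of the fatty acid genes, against 89.5%, 89.5% and 84.2% of the cholesterol enzymes. The median of 19 other genes of sterol synthesis, among them electron donors and regulators of degradation, was -0.10, -0.06, -0.15, -0.03, 0.05, -0.10 and -0.14 in the order of the groups above. Another 9 genes listed around efflux, some of them nuclear receptors and not transporters, had medians of -0.14 to 0.26. Their median was 0.07 with 0 called at BPA 25000, where all 3 efflux genes of the set rose. This mixed list does not measure efflux alone. Medians ran from 0.18 to 0.66 for 6 oxysterol enzymes and from -0.32 to 0.10 for 21 genes of uptake and the lysosome.

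At BPA 2.5 the other genes that passed included Cyp27a1, which makes 27-hydroxycholesterol and rose by a log2FC of 0.98 (SE 0.28, adjusted p = 0.0228). Fdx1, the ferredoxin that feeds electrons to mitochondrial steroid enzymes, fell by 0.61 (adjusted p = 0.0238). Me1, the malic enzyme that supplies NADPH, fell by 0.79 (adjusted p = 0.0275) and Acbd3, a Golgi protein, by 0.48 (adjusted p = 0.0316). Apoc1, an apolipoprotein, was at 0.255 to 1.4 CPM against 0 to 0.0862 CPM in control (adjusted p = 0.0415), close to the level of 3 counts. At BPA 25 Coq2, an enzyme of coenzyme Q synthesis, fell by 0.47 (adjusted p = 0.0428).

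At BPA 250 Por, the reductase that feeds electrons to Cyp51 and Sqle, was at 23.8 ± 3.89 against 49.7 ± 10.6 CPM and fell by 1.06 (adjusted p = 0.00616). Erlin2, an endoplasmic reticulum protein, rose by a log2FC of 1.04 (adjusted p = 0.00879), and Fdx1, lower at BPA 2.5, rose here by 0.62 (adjusted p = 0.0297). Cyp39a1, an oxysterol hydroxylase, was at 8.12 ± 3.66 against 2.58 ± 0.365 CPM and rose by a log2FC of 1.65 (adjusted p = 0.0385). At BPA 25000 Nus1, a subunit of the enzyme that makes dolichol, was at 95.4, 101, 100 and 104 CPM against 182, 141, 177 and 147 CPM and fell by 0.69 (adjusted p = 0.0155). Vldlr, a lipoprotein receptor, was at 279, 161, 159 and 191 CPM against 392, 487, 343 and 443 CPM and fell by 1.08 (adjusted p = 0.0426). Cyp39a1 was at 8.71, 15.4, 1.1 and 11.4 CPM there and rose by a log2FC of 1.82 (adjusted p = 0.0466), with library 3 below every control.

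Within groups, most of the synthesis enzymes tended to vary together between libraries. After group means were subtracted, the 171 pairs of synthesis genes had a median Pearson correlation of 0.36 and a median Spearman correlation of 0.26 over the 32 libraries, and 135 of the 171 pairs were above 0. The 57 pairs of a synthesis and an efflux gene had a median Pearson correlation of -0.20, with 12 above 0, and the 3 pairs of efflux genes one of 0.34. Hmgcs1 (0.57), Fdft1 (0.55), Sc5d, Fdps and Srebf2 (0.54 each) had the highest median Pearson correlations with the synthesis genes. Of the synthesis genes, Ggps1 (-0.16), Pmvk (-0.01), Lss (0.02) and Mvk (0.095) had the lowest. Insig1 stood at 0.44, Insig2 at -0.42, Mylip at -0.32 and Abca1 at -0.29. Without the 4 libraries that stood apart the median over pairs of synthesis genes was 0.43 in 28 libraries. These values describe libraries that share their depth and scaling, and no test was made of them. They were not set beside pairs drawn from all genes tested, so covariation particular to these genes is not shown.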

How the data were processed

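RNA of 32 uterus samples was extracted with a Qiagen RNeasy lipid kit, per the labels' protocols. The 1 table that the authors deposited holds raw read counts for each gene. Per the submitters' processing notes bcl2fastq, TopHat, edgeR and build rn5 were used; their versions, the gene models and the handling of strand are not stated there, so reads of overlapping genes may be shared. Gene identifiers were matched to symbols through RefSeq's GRCr8 table, used for names: 17167 matched and 160, with 1.82% of counts, did not. No columns were identical.

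In R 4.3.3, edgeR 4.0.16 kept genes by filterByExpr (minimum count 10, minimum total 15), scaled them by TMM and fitted a quasi-likelihood model with 1 mean per group over all 8 groups. Benjamini-Hochberg adjustment ran over 13312 genes, with a threshold of 0.05. Log2 CPM used a prior count of 2. Means over EE2 or BPA groups weight doses equally.

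The genes, lists and libraries set apart were chosen with earlier results of these data known. Text names every member that passed, otherwise the 3 smallest p-values where fewer than 3 passed, 8 panel genes, and up to 6 other pathway genes per comparison; some genes of the lists are counted but not reported here. Alternatives used DESeq2 1.42.0 or its size factors, limma 3.58.1 (voom), no filter, only the groups compared, and fewer libraries. Steps were tested on simulated data.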

Additional observations from a re-analysis of the deposited data

Results flagged for a closer look

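For the 21 genes of the set that passed against control in an exposed group or in the mean of the EE2 or BPA groups, or belonged to the panel of 8, each group of 4 libraries was searched for a library far from the other 3, by the gap to its nearest neighbour as a share of the group's range (Dixon's test). Chance alone marks about 1 in 20 groups, and 13 of the 168 gene and group pairs were marked. In control, Acat2 was low in library 1 at 17.3 CPM, Srebf2 was low in library 1 at 158 CPM, and Ebp was high in library 3 at 25.7 CPM. In EE2 0.05, library 3 was high for Idi1 (977 CPM) and Sc5d (46.1 CPM), and library 1 was low for Nsdhl (17.1 CPM). In EE2 0.5, Sc5d was high in library 2 at 32.2 CPM. In BPA 2.5, Hsd17b7 was low in library 3 at 2.6 CPM, Srebf2 was high in library 4 at 199.7 CPM, and Abcg1 was high in library 2 at 53.4 CPM. In BPA 250, Acat2 was high in library 2 at 19.2 CPM. In BPA 25000, library 3 was high for Acat2 (23.3 CPM) and low for Npc2 (105 CPM).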

How the results depend on the processing

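Counts are of the 31 genes that passed, with the share of all genes tested that passed under the same setting in parentheses. No paired analysis was possible because the labels give no replicate number shared between groups. DESeq2 gave 2 in place of 0 at EE2 0.05 (0.563%), 12 in place of 3 at EE2 0.5 (3.4%), 3 in place of 1 at BPA 25 (8.11%), 5 in place of 3 at BPA 250 (13.9%), 2 in place of 0 at BPA 2500 (0.691%) and 8 in place of 2 over EE2 (2.51%). Limma voom with sample weights gave 16 at EE2 0.05 (10.3%), 16 at EE2 0.5 (9.17%), 9 at BPA 25 (19.9%), 12 at BPA 250 (22.5%), 22 at BPA 25000 (30.9%), 22 over EE2 (13.9%), 22 over BPA (19%), 1 between EE2 and BPA (3.83%), 28 among all groups (69.3%) and 19 among BPA groups (46.7%). Fits of only the groups compared gave 3 at EE2 0.05 (1.05%), 10 at EE2 0.5 (2.42%), 3 at BPA 2.5 (0.457%), 3 at BPA 25 (9.63%), 12 over EE2 (4.82%) and 0 over BPA (0.0908%), with fewer libraries to estimate the spread. Without the 4 libraries that stood apart the count was 3 at BPA 2.5 (3.92%), 5 at BPA 25 (10.2%) and 1 at BPA 250 (6.58%). Without a filter it was 0 at BPA 25 (1.02%) and 1 at BPA 250 (6.23%), and with DESeq2's size factors, which moved the median of all genes by at most 0.03, 1 at BPA 250 (9.05%). Leaving out each library in turn gave 0 to 0 at EE2 0.05, 0 to 9 at EE2 0.5, 5 to 15 at BPA 2.5, 0 to 1 at BPA 25, 0 to 5 at BPA 250, 0 to 0 at BPA 2500, 0 to 14 at BPA 25000, 0 to 9 over EE2, 0 to 12 over BPA, 0 to 0 between EE2 and BPA, 13 to 22 among all groups and 5 to 13 among BPA groups. The cause of these moves was not tested. The 43 calls against control, in single groups or in the mean of the EE2 or BPA groups, kept their direction in all alternatives run. These refits share most libraries with the main fit, so a reversal was unlikely beforehand. Of 258 refits other than leaving out a library, 210 stayed past the threshold, as did 217 of 480 that left out 1 library. Depth limits Mvd most, with as few as 10 counts.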
